A study of Homo sapiens with 8 samples.

Results

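Broad domains of dimethylated lysine 4 of histone H3 (H3K4me2) were taken from the pooled peak list of control cells and followed after knockdown of LSD1. They were chosen by their length in that list: a broad domain was a pooled siCtrl peak on chromosomes 1 to 22 or X at least 8000 bp long, and 459 of 45219 peaks met that rule (1.02%). The domains covered 4.7 Mb of the 107 Mb under pooled siCtrl peaks, or 4.38%. All cells were of RD, an established human rhabdomyosarcoma line, a tumour line of the skeletal muscle lineage. Cells of the siLSD1 group received a single siRNA construct against LSD1, and cells of the siCtrl group received a control siRNA. Both groups were transfected with the same lipid reagent, had their medium changed after 8 hours and were harvested after 96 hours. Each group had 2 ChIP libraries, called biological replicates by the submitters, and 2 input libraries, which were not analysed here. By its title, the study asked about a role of LSD1 in adhesion. The knockdown was not measured in these data, and peak lists give no level of muscle markers by which the cell line could be checked.

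H3K4me2 marks promoters and enhancers, and most peaks of the mark are short. Broad stretches of H3K4 methylation are known to lie over genes that set cell identity, such as developmental transcription factors, and over some strongly expressed housekeeping genes. LSD1, encoded by KDM1A, is a demethylase of H3K4me1 and H3K4me2 that acts with the CoREST complex at promoters and enhancers.

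The domains ran between 8007 and 26023 bp, with a median of 9456 bp and quartiles of 8600 and 10892 bp, whereas the median pooled siCtrl peak was 1913 bp long. Their breadth in the pooled siCtrl list is what chose them, so the siCtrl side of every comparison is given as a description. Genes are named where their place in the genome is common knowledge, since no annotation of hg19, the build of the lists, was used.

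The sequences that follow show promoters of genes at domains described below, to give the kind of DNA the broad mark lies over there. They are RefSeq sequences of GRCh38.p14, 5′ to 3′ on the gene's strand. For 5 of these loci, the 250 bases before the gene's start are given, with CpG dinucleotides in capitals. The first is at the longest domain, the next 3 are at domains that were joined with a neighbour or broke in the pooled siLSD1 list, and the last is in the HOXA cluster. No change was placed at these windows themselves.
ACTN4: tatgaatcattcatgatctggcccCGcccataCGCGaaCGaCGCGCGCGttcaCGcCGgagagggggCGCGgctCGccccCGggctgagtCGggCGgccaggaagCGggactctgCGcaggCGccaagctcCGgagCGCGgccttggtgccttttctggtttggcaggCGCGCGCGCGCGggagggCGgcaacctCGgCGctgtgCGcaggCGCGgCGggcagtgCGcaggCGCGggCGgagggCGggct
IER5: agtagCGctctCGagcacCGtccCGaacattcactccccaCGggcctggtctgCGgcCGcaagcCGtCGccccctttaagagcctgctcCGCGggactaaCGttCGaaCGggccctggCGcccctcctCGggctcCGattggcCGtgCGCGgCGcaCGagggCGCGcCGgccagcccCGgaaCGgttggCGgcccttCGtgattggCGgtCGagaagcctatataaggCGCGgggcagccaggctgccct
LAMA5: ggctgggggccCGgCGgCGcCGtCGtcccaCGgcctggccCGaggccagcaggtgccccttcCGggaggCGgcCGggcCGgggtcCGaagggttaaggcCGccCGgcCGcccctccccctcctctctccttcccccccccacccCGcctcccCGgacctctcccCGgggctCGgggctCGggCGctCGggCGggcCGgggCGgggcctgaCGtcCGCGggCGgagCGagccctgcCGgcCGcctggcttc
RBM24: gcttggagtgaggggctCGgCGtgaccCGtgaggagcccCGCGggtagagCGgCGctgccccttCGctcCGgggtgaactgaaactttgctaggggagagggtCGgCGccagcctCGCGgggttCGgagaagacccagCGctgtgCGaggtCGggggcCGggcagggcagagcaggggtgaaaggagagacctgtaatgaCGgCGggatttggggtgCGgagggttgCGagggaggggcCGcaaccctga
HOXA9: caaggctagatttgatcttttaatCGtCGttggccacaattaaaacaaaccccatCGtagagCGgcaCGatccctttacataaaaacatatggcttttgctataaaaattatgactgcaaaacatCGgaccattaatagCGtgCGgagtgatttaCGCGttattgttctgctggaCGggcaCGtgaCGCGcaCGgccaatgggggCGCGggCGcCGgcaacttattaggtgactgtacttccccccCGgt

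All 5 promoters held more CpG than the median of 35116 RefSeq promoters, which was 11. ACTN4 had 40, and 2.16% of promoters held as many. The counts were 33 for IER5 (8.15% of promoters), 32 for LAMA5 (9.52%), 23 for RBM24 (25.8%) and 20 for HOXA9 (32.4%). CpG-rich promoters are those that most often carry H3K4 methylation, as background. The letters GGGCGG, or CCGCCC on the other strand, which is the GC box, stood 5 times each in the ACTN4 and LAMA5 promoters and in none of the other three, and 42.6% of all promoters held it. The letters CANNTG, the E-box bound by myogenic factors among others, stood once in LAMA5 and at 2 positions in HOXA9, with 61.8% of all promoters holding at least 1. Such matches describe these windows only.

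The HOXA domain also covers the gene of the miRNA miR-196b, which lies between HOXA9 and HOXA10 and targets HOX transcripts. Its mature strands are shown with the seed, bases 2 to 8, in capitals.
hsa-miR-196b-5p: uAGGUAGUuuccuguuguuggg
hsa-miR-196b-3p: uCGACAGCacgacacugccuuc

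The peak lists give no read depth, so the precision behind each value is unknown. The siLSD1 libraries listed 50587 and 49611 peaks over 96.9 and 104 Mb, and the siCtrl libraries listed 33878 and 44831 peaks over 70.1 and 94.1 Mb. siCtrl replicate 1 stood apart with the shortest list. The counts of domains whose libraries separate, other than those by band, are also given without it. Peaks of at least 8000 bp numbered 208 and 316 in the siLSD1 libraries and 124 and 249 in the siCtrl libraries, so siLSD1 replicate 1 lay below siCtrl replicate 2. Limiting each library to its 33878 top-scoring peaks left 204 and 312 of them after siLSD1 and 124 and 249 after siCtrl. The pooled lists held 637 broad domains after siLSD1 and 459 after siCtrl, and 632 after siLSD1 when that list was limited to the 45219 peaks of highest score.

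The longest domain lay at ACTN4, which encodes an actin crosslinking protein of the cytoskeleton, on chromosome 19 from 39136679 to 39162701 (19q13.2, hg19). The peaks that overlap it covered 25.5 and 25.8 kb in the siLSD1 libraries and 20.5 and 22.5 kb in the siCtrl libraries. Each siLSD1 library held it as 1 peak and each siCtrl library as 2, so the groups do not overlap in length or in the number of peaks. The pooled siLSD1 peak was 26867 bp long, against 26023 bp in the pooled siCtrl list. The mean difference between libraries was 4.14 kb with a standard error of 1.39 kb, and limma gave an adjusted p of 0.599 over all peaks tested.

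The next domains in length lay at noncoding and homeobox genes. At 22q13.31 a domain that ends near the start of MIRLET7BHG, the host transcript of let-7 miRNAs, measured 22975 bp after siLSD1 and 21987 bp after siCtrl in the pooled lists. Its libraries did not separate, with 21.0 and 20.7 kb after siLSD1 and 18.9 and 21.9 kb after siCtrl. The HOXA domain on chromosome 7 from 27199356 to 27221225 (7p15.2) spans HOXA9 and HOXA10, homeobox genes that pattern the body axis. Its pooled peak was 29437 bp long after siLSD1 and 21870 bp after siCtrl, because the siLSD1 peak also took in the neighbouring siCtrl peak. The libraries had 21.9 and 29.3 kb after siLSD1 and 21.4 and 21.5 kb after siCtrl, so the joining was seen in siLSD1 replicate 2 and not in siLSD1 replicate 1.

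Of the 20 longest domains, 10 kept their length within 1000 bp in the pooled siLSD1 list, 4 grew and 6 shrank, 3 of these with no pooled siLSD1 peak. LMNA, the gene of the nuclear lamins A and C, carried a domain of 19679 bp after siLSD1 and 19531 bp after siCtrl (1q22). NR2F2, an orphan nuclear receptor, had 18598 and 18313 bp in the same order (15q26.2). The library values of the groups overlapped or touched at both. LMNA had 17.8 and 19.4 kb after siLSD1 and 17.6 and 17.8 kb after siCtrl, and NR2F2 had 17.8 and 18.3 kb after siLSD1 and 16.3 and 18.3 kb after siCtrl. PLEC, which encodes the cytolinker plectin, was kept in the pooled lists (19627 bp after siLSD1, 18809 bp after siCtrl), yet its libraries had 18.9 and 18.8 kb after siLSD1 and 14.4 and 16.3 kb after siCtrl (8q24.3). Those 4 values do not overlap between groups. At NES, the gene of the intermediate filament protein nestin, and its neighbour BCAN, the pooled length was 22213 bp in 2 pieces after siLSD1 and 15809 bp in 1 peak after siCtrl (1q23.1). The libraries there gave 14.8 and 12.8 kb after siLSD1 and 14.8 and 14.7 kb after siCtrl, so the pooled growth is not seen in them.

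**Figure D1:**
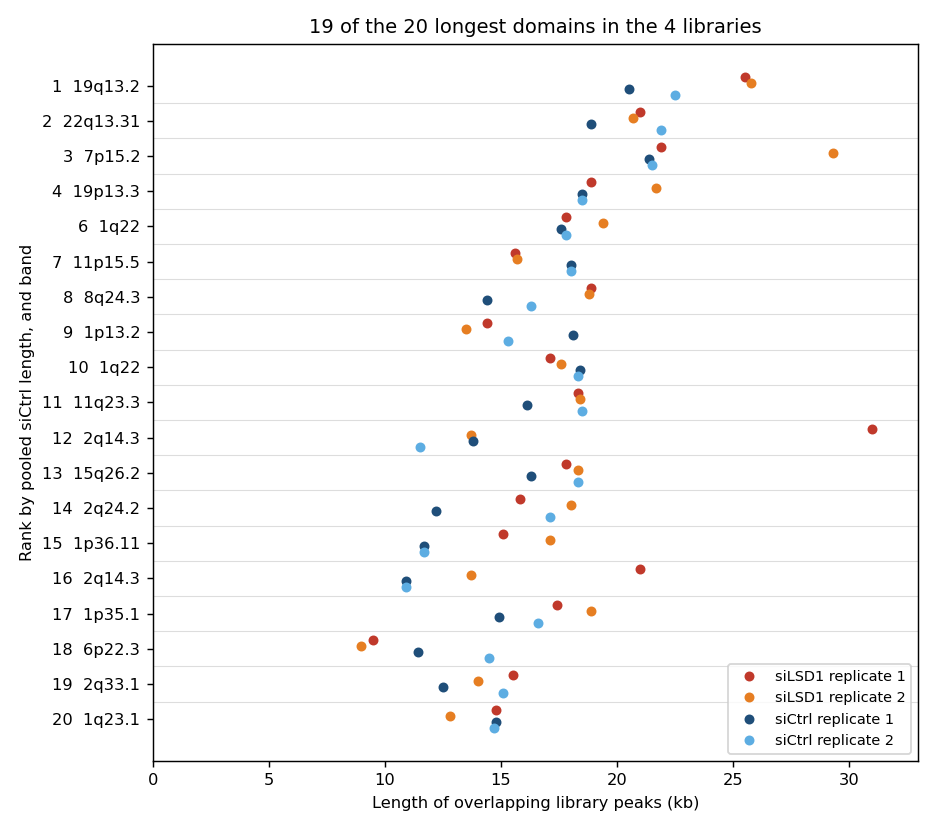
Length of library peaks (kb, x axis) that overlap 19 of the 20 longest broad domains, ranked by their length in the pooled siCtrl list (y axis), with 1 point per library. At the longest domain, in 19q13.2, both siLSD1 libraries (25.5 and 25.8 kb) lie right of both siCtrl libraries (20.5 and 22.5 kb), and at 11p15.5 both lie left (15.6 and 15.7 against 18.0 and 18.0 kb).

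Both siLSD1 libraries lay below both siCtrl libraries at 3 of the 10 longest domains. Among the 20 longest they lay below at 4 and above at 7. Over all pooled siCtrl peaks the shares were 8.06% below and 27.5% above. Without siCtrl replicate 1 it was 7 below and 8 above among the 20 longest, against 33.3% and 30.6% of all peaks. The 3 domains described next were named because their libraries fell. IGF2, the imprinted fetal growth factor that is often highly expressed in rhabdomyosarcoma, had 15.6 and 15.7 kb after siLSD1 and 18.0 and 18.0 kb after siCtrl (chromosome 11 from 2154510 to 2173763, 11p15.5). Its pooled length was 16928 bp in 2 pieces, 1227 bp apart, after siLSD1 and 19254 bp in 1 peak after siCtrl. Both kinds of list thus gave a shorter domain, but the pooled lists hold the data of the same libraries. INKA2 (1p13.2) had 14.4 and 13.5 kb after siLSD1 and 18.1 and 15.3 kb after siCtrl. Its pooled length was 18809 bp after siLSD1 and 18664 bp after siCtrl, so the pooled lists did not show this fall. ARHGEF2, which encodes an exchange factor for the GTPase RhoA, had 17.1 and 17.6 kb after siLSD1 and 18.4 and 18.3 kb after siCtrl (1q22). The INKA2 difference of -2.79 kb was -0.658 kb with the upper 50% of peaks by score and -1.38 kb without siCtrl replicate 1. The separation at ARHGEF2 was under 1 kb, a mean difference of -0.956 kb. For IGF2 the limma difference was -2.38 kb with a standard error of 0.719 kb and an adjusted p of 0.562.

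The single libraries resolved the domains less completely than the pooled list did. All 4 libraries had a peak at 455 of the 459 domains. The median length of overlapping peaks was 8.67 and 8.93 kb in the siLSD1 libraries and 8.02 and 8.71 kb in the siCtrl libraries. The median share of a domain covered was 90.5% and 93.8% after siLSD1 and 86.5% and 94.4% after siCtrl, so the 2 replicates numbered 1 were the lower in each group. At least 90% of a domain was covered in 238 and 283 domains in the siLSD1 libraries and in 183 and 314 domains in the siCtrl libraries. Library peaks per domain averaged 1.85 and 1.49 after siLSD1 and 1.73 and 1.42 after siCtrl. Exactly 1 peak overlapped 184 and 269 domains in the siLSD1 libraries and 197 and 292 domains in the siCtrl libraries, and 22 and 5 domains after siLSD1 and 15 and 5 after siCtrl were split into 4 or more. The number of pieces thus differed more between the 2 replicates of a group than between the groups.

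**Figure D2:**
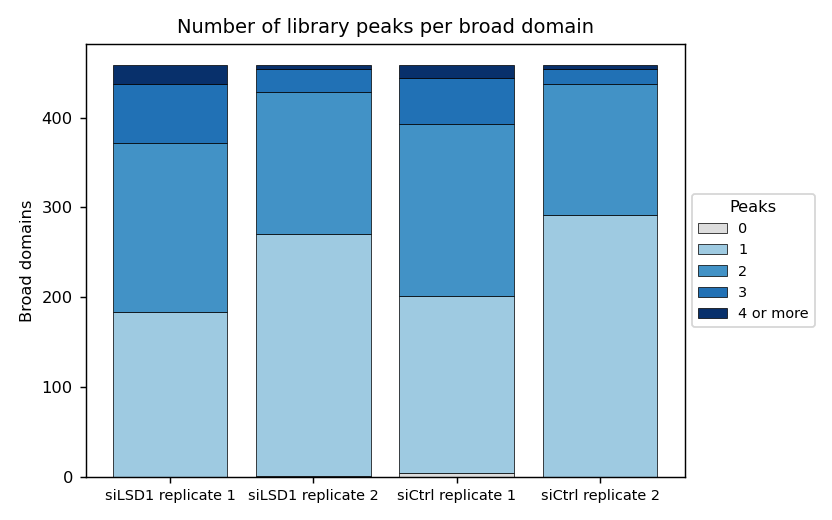
Number of the 459 broad domains (y axis) with 0, 1, 2, 3, or 4 or more library peaks, for each ChIP library (x axis). A single peak was found at 184 and 269 domains in the siLSD1 libraries and at 197 and 292 domains in the siCtrl libraries, so replicates 1 of both groups were the more fragmented.

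In the pooled siLSD1 list most domains kept their length. Growth means that the siLSD1 peaks over a domain were at least 1000 bp longer than the domain, and shrinkage that they were at least 1000 bp shorter. By that measure 102 domains grew (22.2%, against 10.6% of all pooled siCtrl peaks), 73 shrank (15.9%, against 7.14%) and 284 were kept (61.9%, against 82.2%). The median difference was 148 bp, or 1.44% of the length. Over all pooled siCtrl peaks it was 111 bp, or 5.03%, and over those of 4000 to under 8000 bp 140 bp, or 2.71%. Relative to length, the median change of the domains was thus the smaller. Peaks just below the rule, of 4000 to under 8000 bp, grew in 15.7% and shrank in 5.84% of 4879 cases. A fixed step of 1000 bp is a smaller part of a long peak, and whether that accounts for the higher shares was not tested. With a step of 20% of the length, 69 domains grew and 42 shrank.

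**Figure D3:**
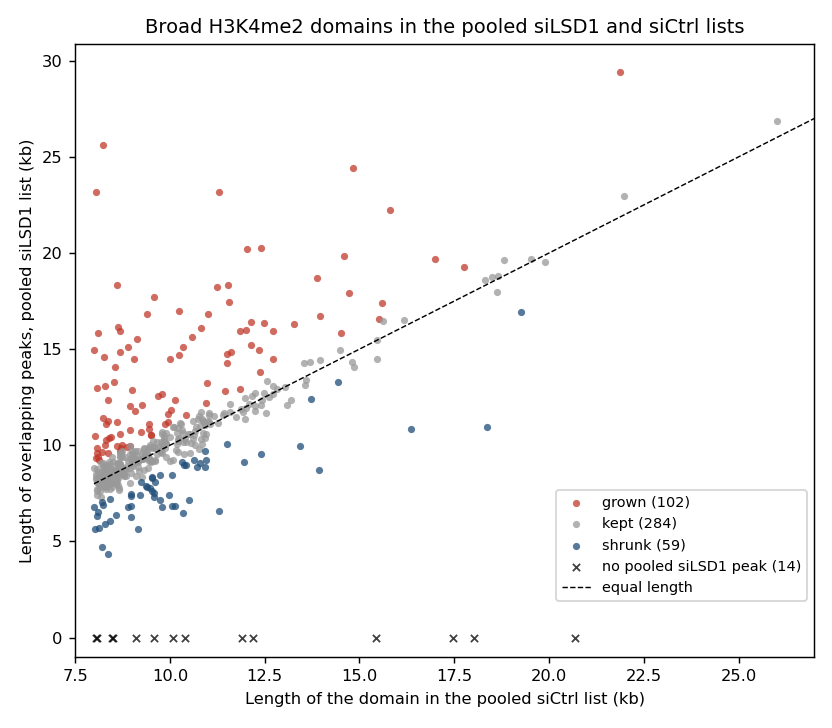
Length of each broad domain in the pooled siCtrl list (kb, x axis) and of the pooled siLSD1 peaks that overlap it (kb, y axis), coloured by class, with a dashed line at equal length. Of the 459 domains 102 grew and 284 were kept, 59 shrank with a siLSD1 peak present, and the 14 crosses at 0 had no pooled siLSD1 peak.

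Growth came in 2 forms, by joining with a neighbouring peak and by outward movement of an edge. Of the 102 grown domains, 48 lay under a siLSD1 peak that also covered another siCtrl peak, and these grew by a median of 5444 bp. The other 54 grew by a median of 1734 bp and by up to 8128 bp. The start moved outward by at least 500 bp in 66 grown domains, the end in 61, and both in 25. At 63 of the 102 grown domains both siLSD1 libraries were longer than both siCtrl libraries (61.8%, against 27.5% of all pooled siCtrl peaks). Both were shorter at 1 (0.98%, against 8.06%). Without siCtrl replicate 1 it was 67 longer (65.7%, against 30.6%) and 10 shorter (9.8%, against 33.3%). The pooled lists hold the data of the same libraries, so these counts are a description and no separate support. Over the grown domains the median library length was 9.86 and 10.1 kb after siLSD1 and 8.18 and 8.86 kb after siCtrl. Counting all 459, 55 domains were joined (12.0%, against 5.5% of all pooled siCtrl peaks).

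The largest rise of library means was at IER5, an immediate early response gene, where neighbouring domains joined. The domain at IER5 on chromosome 1 from 181056005 to 181067304 (1q25.3) had 18.6 and 19.5 kb in the siLSD1 libraries and 10.4 and 10.7 kb in the siCtrl libraries. The domain next to it, from 181067678 to 181075725, had 19.7 and 19.5 kb in the siLSD1 libraries and 7.85 and 8.16 kb in the siCtrl libraries. Both lay under the same pooled siLSD1 peak of 23193 bp, so they are 1 joined stretch after siLSD1 and the same siLSD1 library peaks are counted for both. Inside its own bounds the first had 11.3 and 11.0 kb after siLSD1 and 10.4 and 10.7 kb after siCtrl. The second had 7.91 and 8.05 kb after siLSD1 and 7.85 and 7.85 kb after siCtrl. The rise of whole-peak length was therefore the joining of stretches that the siCtrl libraries already held, with mean differences inside the bounds of 0.565 and 0.131 kb. For whole peaks the limma differences were 8.53 kb (standard error 0.701 kb, adjusted p = 0.145) and 11.6 kb (standard error 0.582 kb, adjusted p = 0.116), which did not pass the threshold of 0.05.

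A domain in 7q32.3, on chromosome 7 from 130593217 to 130608047, was likewise joined with a neighbouring siCtrl peak. The libraries had 23.9 and 23.8 kb after siLSD1 and 14.1 and 13.7 kb after siCtrl, and the pooled length was 24406 bp after siLSD1 and 14831 bp after siCtrl. Inside the bounds of the domain they had 14.8 and 14.8 kb after siLSD1 and 14.1 and 13.7 kb after siCtrl, so most of the difference lay in the stretch that was joined. The limma difference of whole peaks was 9.9 kb with a standard error of 0.853 kb and an adjusted p of 0.156. GLI2, a transcription factor of Hedgehog signalling, had 16.8 and 17.9 kb after siLSD1 and 13.5 and 13.0 kb after siCtrl (2q14.2). It was held in 2 peaks by each siLSD1 library and in 1 by each siCtrl library, and the added length lay outside the bounds of the domain, where the values inside were 13.2 and 14.1 kb after siLSD1 and 13.5 and 13.0 kb after siCtrl. AHDC1, which encodes an AT-hook protein, carried 2 broad domains in 1p36.11 that both grew: 20248 bp after siLSD1 and 12394 bp after siCtrl for the domain at its start, and 19255 and 17768 bp in the same order for the domain inside the gene. The libraries of the first had 19.4 and 11.7 kb after siLSD1 and 9.74 and 10.3 kb after siCtrl, and inside its bounds 12.1 and 10.7 kb after siLSD1 and 9.74 and 10.3 kb after siCtrl.

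Pooled growth was not always matched by the libraries. The largest pooled increase, 17386 bp, was at SEPTIN9, a septin of the cytoskeleton, in 17q25.3, where the pooled length was 25625 bp after siLSD1 and 8239 bp after siCtrl. The libraries there had 7.02 and 7.04 kb after siLSD1 and 6.62 and 8.14 kb after siCtrl, which overlap. The pooled siLSD1 peak in question spans 3 pooled siCtrl peaks. At LAMA5, which encodes a laminin chain of basement membranes, the pooled length was 18322 bp after siLSD1 and 8610 bp after siCtrl (20q13.33). Its libraries had 11.5 and 9.04 kb after siLSD1 and 8.52 and 8.32 kb after siCtrl, and inside the bounds of the domain 8.61 and 8.61 kb after siLSD1 and 8.52 and 8.32 kb after siCtrl. The added length at LAMA5 thus lay outside its bounds. CLASP1, a microtubule-binding protein gene in 2q14.2, had 17710 bp after siLSD1 and 9582 bp after siCtrl in the pooled lists and 8.48 and 9.70 kb after siLSD1 and 7.62 and 8.49 kb after siCtrl in the libraries. In 16p11.2, at MAZ, a zinc finger factor, the pooled length was 20223 bp after siLSD1 and 12026 bp after siCtrl, and the library values of 11.3 and 15.8 kb after siLSD1 and 10.1 and 11.4 kb after siCtrl overlapped.

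Shrinkage was of 2 kinds. A pooled siLSD1 peak was present at 59 of the 73 shrunk domains, with a median change of -1901 bp. At 33 of these 59 both siLSD1 libraries lay below both siCtrl libraries (55.9%, against 8.06% of all pooled siCtrl peaks). Both lay above at 1 (1.69%, against 27.5%). Without siCtrl replicate 1 it was 46 below (78.0%, against 33.3%) and 4 above (6.78%, against 30.6%). These counts too are a description, as the pooled lists hold the data of the same libraries. Over the 59 domains the median library length was 6.62 and 6.45 kb after siLSD1 and 7.71 and 7.97 kb after siCtrl. The other 14 had no pooled siLSD1 peak at all (3.05%, against 8.86% of all pooled siCtrl peaks and 0.615% of those of 4000 to under 8000 bp).

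RBM24, an RNA-binding protein gene of heart and skeletal muscle, shrank in the pooled lists and in the libraries whose data they pool. Its domain on chromosome 6 from 17276841 to 17293190 (6p22.3) held 9.47 and 8.98 kb in the siLSD1 libraries and 11.4 and 14.5 kb in the siCtrl libraries. The pooled list held it as 5 pieces of 10855 bp in sum after siLSD1, with a largest gap of 4187 bp, and as a single peak of 16350 bp after siCtrl. Each of the 4 libraries showed 5 peaks there, so the number of pieces did not differ between libraries while their summed length did. The limma difference was -3.71 kb with a standard error of 1.25 kb and an adjusted p of 0.604.

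Other shrunken domains were picked out after their values were seen, as the largest that kept a pooled siLSD1 peak. MYCL, a MYC family member, had a pooled length of 4351 bp after siLSD1 and 8358 bp after siCtrl (1p34.2), with 5.65 and 3.57 kb in the siLSD1 libraries and 7.73 and 7.18 kb in the siCtrl libraries. GPC1, which encodes the heparan sulfate proteoglycan glypican 1, had 6607 bp after siLSD1 and 11304 bp after siCtrl (2q37.3), and 5.82 and 6.53 kb after siLSD1 against 7.58 and 6.96 kb after siCtrl in the libraries. Both loci moved the same way in the 2 kinds of list, which hold the data of the same libraries and are no separate support. PURB, a nucleic acid-binding protein gene in 7p13, changed by -5203 bp in the pooled list, while its libraries had 7.63 and 7.97 kb after siLSD1 and 8.26 and 8.74 kb after siCtrl. LRRFIP1 in 2q37.3 had 6502 bp after siLSD1 and 10347 bp after siCtrl, and its library values overlapped.

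The largest falls of the library means, also chosen after the values were seen, included regions where the pooled lists changed less, or the other way. In 1q31.2, on chromosome 1 from 192526565 to 192536981, the libraries had 4.08 and 3.79 kb after siLSD1 and 9.68 and 9.55 kb after siCtrl. In 9q21.33, on chromosome 9 from 89159583 to 89168487, they had 2.50 and 2.50 kb after siLSD1 and 7.71 and 7.80 kb after siCtrl. Both differences, -5.68 and -5.26 kb, had an adjusted p of 0.116 by limma, the smallest of all peaks tested, and in the pooled lists the changes were -1451 and -2134 bp. With the upper 50% of peaks by score the difference in 9q21.33 was 0.296 kb. CASS4, a focal adhesion scaffold gene of the Cas family, followed with 5.40 and 4.95 kb after siLSD1 and 9.71 and 10.7 kb after siCtrl (20q13.31). ALPK3, a kinase gene of heart and skeletal muscle, had 4.15 and 4.05 kb after siLSD1 and 7.85 and 7.95 kb after siCtrl (15q25.3). HEYL, a Notch target gene, had 7.09 and 6.06 kb after siLSD1 and 10.0 and 10.4 kb after siCtrl (1p34.2). At each of these 5 loci the siLSD1 values lay at least 2 kb below the siCtrl values. In 2q33.2 the libraries had 8.99 and 3.07 kb after siLSD1 and 10.2 and 10.6 kb after siCtrl, while the pooled length was 1767 bp greater after siLSD1.

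The 14 domains with no pooled siLSD1 peak were not empty in the siLSD1 libraries. Both siLSD1 libraries had a peak at 13 of them, and the median length over the 14 was 8.89 and 8.67 kb after siLSD1 and 7.27 and 7.72 kb after siCtrl. Both siLSD1 libraries lay above both siCtrl libraries at 4 (28.6%, against 27.5% of all pooled siCtrl peaks) and below them at 0 (against 8.06%). Without siCtrl replicate 1 it was 5 above (35.7%, against 30.6%) and 1 below (7.14%, against 33.3%). The share above was thus near that of all peaks. Among all 34456 pooled siCtrl peaks with a peak in both siLSD1 libraries, 55 (0.16%) lacked a pooled siLSD1 peak, against 13 of 458 broad domains (2.84%). The way the authors pooled replicates is not stated in the sources at hand, and the reason for the missing peaks was not tested. The longest was at MIDN and ATP5F1D, genes of midnolin and of an ATP synthase subunit, in 19p13.3, with 20675 bp in the pooled siCtrl list and library lengths of 18.9 and 21.7 kb after siLSD1 and 18.5 and 18.5 kb after siCtrl. At TBR1, a T-box factor best known in the cortex, the libraries had 15.8 and 18.0 kb after siLSD1 and 12.2 and 17.1 kb after siCtrl (2q24.2). The groups overlap at TBR1 but not at MIDN. A domain of 17477 bp inside BIN1, which encodes a membrane-bending protein of muscle T-tubules, had 21.0 and 13.7 kb after siLSD1 and 10.9 and 10.9 kb after siCtrl (2q14.3). Among equal numbers of top-scoring peaks the mean difference there was -5.38 kb, against 6.45 kb with all peaks. Its neighbour at the BIN1 start, of 18355 bp in the pooled siCtrl list, had 31.0 and 13.7 kb after siLSD1 and 13.8 and 11.5 kb after siCtrl, and its pooled siLSD1 peak measured 10953 bp. The 21.0 kb peak of siLSD1 replicate 1 lies over both domains and is counted for both, and the library values of the groups overlap at the BIN1 start.

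Of these 14, 5 lay in 8q24.21, a band with 8 broad domains among 48 pooled siCtrl peaks, of which 6 shrank and 1 grew in the pooled lists. In the libraries 3 of the 8 were longer in both siLSD1 than in both siCtrl libraries and 0 were shorter. Over all pooled siCtrl peaks 27.5% were longer and 8.06% shorter by that measure, and 10.6% grew and 7.14% shrank in the pooled lists. Next to each other at PVT1, a long noncoding RNA gene often amplified in tumours, were domains of 12191 and 8510 bp. Their libraries had 11.3 and 21.1 kb after siLSD1 and 11.5 and 11.9 kb after siCtrl for the first, and 7.46 and 21.1 kb after siLSD1 and 6.95 and 6.95 kb after siCtrl for the second. The value of 21.1 kb is the same siLSD1 replicate 2 peak over both. At CYRIB, a regulator of Rac signalling, the libraries had 6.36 and 9.12 kb after siLSD1 and 6.17 and 6.81 kb after siCtrl. A further domain of 10386 bp in the band had 5.47 kb and no peak in the siLSD1 libraries and no peak and 7.70 kb in the siCtrl libraries. It is the only 1 of the 14 without a peak in both siLSD1 libraries. The last, of 10080 bp, had 9.25 and 9.11 kb after siLSD1 and 7.33 and 5.40 kb after siCtrl, higher in both siLSD1 libraries.

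**Figure D4:**
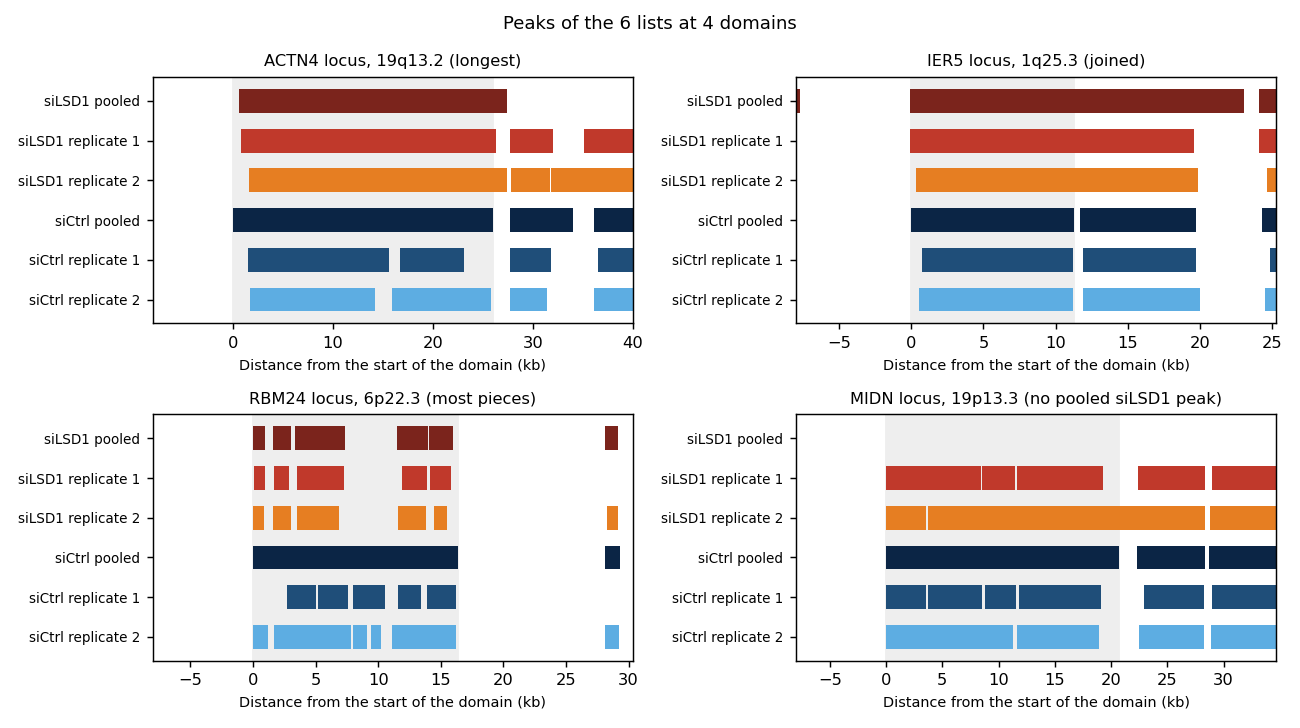
Peaks of the pooled and library lists (rows, siLSD1 above siCtrl) at 4 broad domains, by distance from the start of the domain (kb, x axis), with the domain shaded. At ACTN4 both siLSD1 libraries hold 1 peak and both siCtrl libraries 2, at IER5 siCtrl peaks of 11300 and 8048 bp lie under 1 siLSD1 peak of 23193 bp, at RBM24 the pooled siLSD1 list holds 5 pieces, and at MIDN the pooled siLSD1 row is empty while both siLSD1 libraries have peaks.

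Breaks were short. In the pooled siLSD1 list 90 domains were covered by 2 or more peaks (19.6%, against 3.37% of all pooled siCtrl peaks and 12.5% of those of 4000 to under 8000 bp), 79 of them by 2, 10 by 3 and 1 by 5. The 103 gaps had a median of 210 bp and ran between 1 and 4187 bp, and 86 were of 1000 bp or less. Many of these domains were divided in single libraries of both groups: 70 had 2 or more peaks in both siLSD1 libraries, 53 had 2 or more in both siCtrl libraries, and 78 in at least 1 siCtrl library. At 34 broken domains both siLSD1 libraries lay below both siCtrl libraries (37.8%, against 8.06% of all pooled siCtrl peaks). Both lay above at 3 (3.33%, against 27.5%). Without siCtrl replicate 1 it was 65 below (72.2%, against 33.3%) and 4 above (4.44%, against 30.6%). The broken class was taken from the pooled siLSD1 list, which holds the data of the same siLSD1 libraries, so these shares are a description. A break seen in the libraries alone, with 2 or more peaks in both siLSD1 libraries and 1 in both siCtrl libraries, was found at 20 domains (4.36%, against 1.21% of all pooled siCtrl peaks). The reverse, with 1 peak in both siLSD1 libraries and 2 or more in both siCtrl libraries, was found at 18 (3.92%, against 0.239%). Against siCtrl replicate 2 alone the same counts were 68 broken (14.8%, against 2.72% of all pooled siCtrl peaks) and 26 fused (5.66%, against 0.929%). Breaks and fusions were thus near in number with all 4 libraries, and breaks were more frequent against siCtrl replicate 2 alone. Over all pooled siCtrl peaks breaks numbered 545 and fusions 108, and 1231 and 420 against siCtrl replicate 2 alone. The domains were chosen as single long peaks of the pooled siCtrl list, so these counts are a description.

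After RBM24, the domains with most pieces were 10 with 3 each. The longest of these lay at FASTK and TMUB1 (7q36.1), at WSCD1 (17p13.2) and at PACS2, a membrane trafficking gene (14q32.33). Next in length was the domain at HNRNPA1 and CBX5, genes of an RNA-binding protein and of the heterochromatin protein HP1 alpha, which share a bidirectional promoter region (12q13.13). WSCD1 had 8.96 and 7.87 kb after siLSD1 and 10.9 and 11.4 kb after siCtrl, with 3 peaks in each of the 4 libraries. At FASTK the summed pooled length was 12657 bp after siLSD1 and 12711 bp after siCtrl, so that it broke without losing length. The pieces over HNRNPA1 and CBX5 summed to 9404 bp after siLSD1 and 9893 bp after siCtrl, and the libraries divided it into 3 and 3 peaks after siLSD1 and 4 and 1 after siCtrl.

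Both siLSD1 libraries were longer than both siCtrl libraries at 134 domains (29.2%, against 27.5% of all pooled siCtrl peaks) and shorter at 74 (16.1%, against 8.06%). The share of longer domains was near that of all peaks. Without siCtrl replicate 1 the counts were 150 longer (32.7%, against 30.6% of all peaks) and 181 shorter (39.4%, against 33.3%). Without siCtrl replicate 2 they were 281 longer (61.2%, against 54.3%) and 93 shorter (20.3%, against 12.2%). The balance between longer and shorter turned with the siCtrl library that was left out, for the domains and for all peaks alike. The median over the domains of the siLSD1 mean minus the siCtrl mean was 0.282 kb, and against siCtrl replicate 2 alone it was -0.108 kb and against siCtrl replicate 1 alone 0.569 kb. Over all pooled siCtrl peaks the same medians were 0.14, 0 and 0.339 kb.

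No domain passed a test of the difference between groups. limma, fitted to the kilobases of library peaks over 40017 pooled siCtrl peaks that included all 459 domains, called 0 domains higher and 0 lower at a Benjamini-Hochberg adjusted p under 0.05, and 0.0% of all peaks in either direction. At an unadjusted p under 0.05 it gave 31 domains higher (6.75%, against 6.25% of all peaks tested) and 24 lower (5.23%, against 1.88%). The smallest adjusted p, 0.116, was reached by domains in 1q25.3 (IER5), 1q31.2 and 9q21.33. With 2 libraries per group, each limma p sets the difference against a spread estimated from few samples and drawn toward that of all peaks tested. A p above the threshold does not show that the lengths were equal.

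The pooled lists and the libraries were also set out by score. The authors' score, given with each peak, had a median of 2384.22 over the domains and 293.17 over all pooled siCtrl peaks. Of the 180 domains with a score of 3100 or more, 122 were kept (67.8%), 43 grew, 15 shrank (8.33%) and 21 broke (11.7%). Of the 47 with a score under 500, 19 were kept (40.4%), 9 grew, 19 shrank (40.4%), and 13 broke (27.7%), and 6 of those that shrank had no pooled siLSD1 peak. Over all pooled siCtrl peaks 82.2% were kept, 10.6% grew, 7.14% shrank and 3.37% broke. Shrinkage in the pooled list thus made up a larger share among domains of low score, while growth was about as frequent in both (23.9% and 19.1%). In the libraries, both siLSD1 values lay above both siCtrl values at 64 domains of the high-score class (35.6%) and 9 of the low-score class (19.1%), against 27.5% of all pooled siCtrl peaks. They lay below at 24 (13.3%) and 7 (14.9%), against 8.06%. Without siCtrl replicate 1 it was 70 (38.9%) and 13 (27.7%) above, against 30.6%. Below were 63 (35.0%) and 20 (42.6%), against 33.3%, so the comparison of the classes depended on that library. These shares were not tested.

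Choosing domains by breadth in one list favours those that are shorter in any other list, so the same measures were taken in the reverse direction. The pooled siLSD1 list held 637 broad domains. In the pooled siCtrl list 38 of these (5.97%) were longer by at least 1000 bp, 286 (44.9%) were shorter and 195 (30.6%) were in 2 or more pieces. A larger share of siLSD1 domains was thus shorter in the siCtrl list than of siCtrl domains in the siLSD1 list, where 22.2% were longer and 15.9% shorter. The pooled siLSD1 list was also the longer, with 56860 against 45219 peaks. The same shares over all of its peaks were not taken, so this is no result about broad domains alone. The median difference, siCtrl minus siLSD1, was -818 bp over the siLSD1 domains. The 2 sets overlapped at 333 of the 637 siLSD1 domains (52.3%) and 335 of the 459 siCtrl domains (73.0%). The remaining 304 siLSD1 domains had a median siCtrl length of 7331 bp, and 147 of them lay over 2 or more pooled siCtrl peaks. Another 152 had 1 pooled siCtrl peak. At 243 of the 304 the summed siCtrl length was at least 6000 bp, so most already had a long stretch in the siCtrl list, in 1 peak or in several.

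**Figure D5:**
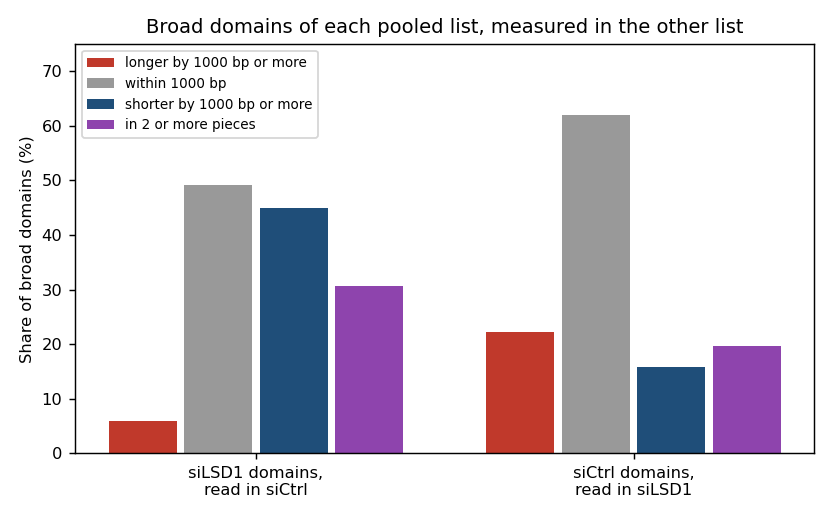
Share of broad domains (%, y axis) that were longer, within 1000 bp, shorter, or in 2 or more pieces when measured in the pooled list of the other siRNA, for the 637 siLSD1 domains read in siCtrl (left) and the 459 siCtrl domains read in siLSD1 (right). Of the siLSD1 domains 44.9% were shorter in siCtrl, and of the siCtrl domains 15.9% were shorter in siLSD1.

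The domains were spread over 248 cytobands. Chromosome 2 held 72 (1.84% of its pooled siCtrl peaks) and chromosome 1 held 62 (1.41%), followed by 39 each on chromosomes 7 (1.48%) and 17 (1.83%). Chromosomes 13 and 22 held 1 each (0.123% and 0.101%). The share over all chromosomes was 1.02%. Light-staining bands, which are rich in genes, held 63.0% of the domains, 57.4% of all pooled siCtrl peaks and 62.2% of those of 4000 to under 8000 bp. The median distance to the next domain was 818 kb, and 80 domains (17.4%) lay within 50 kb of another. Distances over all pooled siCtrl peaks were not taken, so whether the domains cluster was not tested. Bands 2q37.3 and 17q25.3 held most in number, with 12 each (7.89% and 4.56% of their pooled siCtrl peaks). By share 8q24.21 (16.7%) and 1p35.1 (9.72%) held more. In 2q37.3, 7 of the 12 shrank and 1 grew in the pooled lists. Both siLSD1 libraries were shorter than both siCtrl libraries at 4 of the 12 and longer at 2. Among the 12 were GPC1, LRRFIP1 and HDAC4, a class II histone deacetylase gene. The libraries had 8.15 and 8.30 kb after siLSD1 and 14.0 and 9.37 kb after siCtrl at HDAC4. In 1p35.1, where PHC2, a Polycomb subunit gene, has the longest domain, 3 of 7 grew and none shrank. Both siLSD1 libraries were longer at 4 and shorter at 0. Over all pooled siCtrl peaks 10.6% grew and 7.14% shrank, and both siLSD1 libraries were longer at 27.5% and shorter at 8.06%. The counts by band were not taken without siCtrl replicate 1. PHC2 itself had 17.4 and 18.9 kb after siLSD1 and 14.9 and 16.6 kb after siCtrl, a difference of 2.46 kb that was -0.846 kb among equal numbers of top-scoring peaks.

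At the limit of 8000 bp the domains just inside and the peaks just outside overlapped in the siCtrl libraries, with 6.54 to 7.98 kb inside and 4.46 to 7.94 kb outside. Just inside were domains of 8007 bp in 7p12.3, at TNS3, a focal adhesion protein gene, of 8008 bp in 12p13.33, at WNK1, a kinase gene of ion transport, and of 8010 bp in 20q11.23. Their pooled siLSD1 lengths were 14961, 8820 and 6769 bp. Just outside were peaks of 7999 bp in 1p35.3, 7998 bp in 1p32.3 and 7997 bp in 1p22.3, with pooled siLSD1 lengths of 9079, 8132 and 8107 bp. The TNS3 domain had 8.13 and 7.52 kb in the siLSD1 libraries and 7.98 and 6.75 kb in the siCtrl libraries, so its pooled growth was not seen in them.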

How the data were processed

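H3K4me2 ChIP-seq was analysed from 4 ChIP libraries of RD cells, 2 per siRNA. The authors deposited a peak list for each library and a pooled list for each siRNA, 6 lists in all. Reads were aligned with Bowtie to hg19, per the submitters' processing notes. Peaks bear names given by MACS, per the deposited lists. Its version, its settings, any use of inputs and the way of pooling are not stated there. The unit deposited by the authors is a score per peak, which is their own value and served to describe peaks and to rank or filter them inside 1 list. Read depth is unknown.

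Peaks on chromosomes 1 to 22 and X were used, with coordinates counted from 1. The domains, measures and loci were chosen with earlier results of these data known. Length means the sum of all peaks that overlap a domain by at least 1 bp, taken whole. A domain grew or shrank by a change of at least 1000 bp and was broken when 2 or more pooled siLSD1 peaks overlapped it. limma 3.58.1 (trend and robust, statmod 1.5.0, R 4.3.3) was fitted to kilobases per library over pooled siCtrl peaks with at least 0.5 kb in at least 2 libraries, two-sided, Benjamini-Hochberg threshold 0.05. Nothing beyond the submitters' word shows that the replicates came from separate cultures. Overlap counting was tested on simulated lists. Named regions are the 20 longest, the 8 of largest growth and 8 of largest shrinkage, the 5 with most pieces, the 3 longest with both siLSD1 libraries above and the 3 below, and 3 on each side of 8000 bp. GLI2, HDAC4 and other loci outside this rule were chosen after their values were seen. 1 of the 20 longest domains is not reported here. Other steps used matplotlib 3.10.9, numpy 2.4.6, pandas 2.3.3 and scipy 1.17.1 in Python 3.11.15, and hg19 cytobands from circlize 0.4.16. Promoter and miRNA sequences were matched by symbol or name, and all 5 promoters sought were found. Alternatives were equal numbers of peaks, the upper 50% by score, an overlap of 50% of the shorter peak, only the bp inside a domain, gaps of up to 1000 bp joined, other steps of change, other limma settings and leaving out each library.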

Additional observations from a re-analysis of the deposited data

How the results depend on the processing

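The limma counts stayed at 0 in both directions under every alternative run, with a smallest adjusted p over all peaks between 0.052, under quantile normalization, and 0.633, without siCtrl replicate 1. When a library was left out, its lone partner was assumed to vary like the other group. Under quantile normalization 13 domains were higher (2.83%, against 4.89% of all peaks) and 86 lower (18.7%, against 4.64%) at an unadjusted p under 0.05, and the median difference over the domains was -0.82 kb, against 0.283 kb without it. The replicate numbers pair the samples by number only, with a correlation of deviations of 0.129, and a replicate block gave 0 calls and 36 domains higher (7.84%, against 7.94%) and 26 lower (5.66%, against 2.39%) at an unadjusted p under 0.05. Of 56 named regions, 15 moved by more than the spread between replicates with the upper 50% by score, 9 with equal numbers of peaks and 7 with only the bp inside the domain. Leaving out each library moved the count of longer domains between 150 and 281 and of shorter domains between 93 and 181. Without siLSD1 replicate 1 it was 219 longer, and without siLSD1 replicate 2 it was 125 shorter. Joining gaps of up to 1000 bp gave 160 grown, 17 broken and 112 joined domains, since short gaps between siLSD1 peaks were filled. A step of 2000 bp gave 64 grown and 43 shrunk, and a step of 20% of the length gave 42 shrunk. The other alternatives for these counts stayed within 1.5 times. Leaving out the 14 domains with no pooled siLSD1 peak was chosen after seeing the data and gave 59 shrunk. Growth limited to bp inside a domain cannot give a value. Read depth is unknown, so differences in list length between libraries limit every count.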

Other observations

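Regions that were broad in the pooled siLSD1 list and under 8000 bp, or in several peaks, in the pooled siCtrl list were looked at after the values were seen, as the longest of that kind. At MYC, a growth-promoting transcription factor gene in 8q24.21, the pooled siLSD1 peak was 23578 bp long and the siCtrl peak 7988 bp, just under the limit. The libraries there had 7.90 and 15.0 kb after siLSD1 and 7.91 and 7.99 kb after siCtrl, so the length was seen in siLSD1 replicate 2 alone. At HOXB3 and HOXB4 in 17q21.32, a pooled siLSD1 peak of 21326 bp lay over 4 pooled siCtrl peaks of 20198 bp in sum, with 20.3 and 20.9 kb in the siLSD1 libraries and 16.1 and 18.8 kb in the siCtrl libraries. In 6q14.3 the libraries had 15.3 and 17.1 kb after siLSD1 and 4.88 and 9.64 kb after siCtrl, and in 20q12 they had 12.3 and 14.6 kb after siLSD1 and 3.14 and 6.51 kb after siCtrl. The groups do not overlap at these last 3 loci.

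The longest pooled siLSD1 peak, of 41723 bp, lay in 1q42.13, the band of the 5S ribosomal RNA gene array, and no pooled siCtrl peak overlapped it. The libraries had no peak and 41.7 kb after siLSD1 and no peak and 41.4 kb after siCtrl. The peak was thus present in the replicate numbered 2 of each group and absent from the replicate numbered 1.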
